A study of Mus musculus with 12 samples.

Results

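The translation initiation factors of the mouse, the proteins that bring the small ribosomal subunit to the start codon of an mRNA, were followed through whole-embryo development on Clariom S Mouse arrays. Members were the probe sets whose gene symbols begin with Eif1 to Eif6, with Eif2s3y left out. They numbered 54 of 22206 probe sets, and 50 of them carried 1 symbol. The other 4 were those of Eif5 and Eif4a2, which also name small RNAs (Snora28, and Snord2 with Snora81), that of Eif3j1 together with Eif3j2, and that of Ankhd1 together with Eif4ebp3, whose signals cannot be assigned to 1 of the genes. Symbols alone chose the members, and no signal entered the rule, though the rule was set with earlier results of these data known. There were 5 stages. Pronuclear embryos (E0.5), 2-cell embryos (E1.5) and morulae (E2.5) were pooled, with 2 arrays each. Embryos of E10.5 and E16.5 were hybridised whole, 1 individual to an array, with 3 arrays each. All came from natural matings after superovulation, the labels give no strain, genotype or sex, and no treatment is named beyond the washing of pronuclear embryos in KSOM medium and their incubation. The number of embryos in a pool, and whether pools or individuals had different mothers, is not given, so the p-values below measure the spread between these samples, which may in part be technical.

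Initiation begins when eIF2, bound to GTP and the initiator tRNA, joins the small subunit together with eIF1, eIF1A, eIF3 and eIF5. The cap-binding complex eIF4F, made of eIF4E, the scaffold eIF4G and the helicase eIF4A, recruits the mRNA, and eIF5B then joins the large subunit. Cells regulate the process mainly at eIF2, whose recycling by the exchange factor eIF2B is blocked when its alpha subunit is phosphorylated, and at eIF4E, which the 4E-binding proteins sequester. The fertilised egg begins development on mRNAs stored in the oocyte. The mouse genome is activated mainly at the 2-cell stage, and ribosomes are then built up towards the blastocyst.

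Signals are on the log2 scale as deposited, and differences are in the same units, which are not calibrated as folds of RNA. Array medians lay between 6.19 and 6.59, and signals reached 19.53. Over all probe sets, arrays of 1 stage correlated at 0.978 to 0.992 and arrays of different stages at 0.656 to 0.887. Probe sets are not independent replicates. Marker lists fitted the labelled stages: the 5 morula markers, for example, averaged 13.90 to 14.05 in morula arrays and 5.39 to 5.71 at E10.5, and the 5 E10.5 markers 15.45 to 15.54 at E10.5. Olfactory and vomeronasal receptor probe sets (1407) gave the level of genes not in use. The 95th percentile of their stage means was 5.85 in pronuclear embryos, 6.36 at the 2-cell stage, 6.10 in morulae, 5.38 for E10.5 and 5.23 for E16.5. A stage mean at or below it is called within the receptor range here, and a change out of or into that range is a lower bound. All arrays of the preimplantation stages carry 1 date in their names and all arrays of E10.5 and E16.5 another, so date and stage cannot be told apart in the step from morula to E10.5, while each of the other steps lies within 1 date. Embryos were taken whole, so a change in the number of cells of a type and a change of RNA per cell cannot be told apart.

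The initiation factors were well measured. All 54 lay above the receptor 95th percentile in at least 2 arrays, and 48 of 54 lay above it by their mean at every stage, against 8735 of all 22206 probe sets. The median member signal was 11.50 in pronuclear embryos, 11.49 at the 2-cell stage, 12.43 in morulae, 11.77 for E10.5 and 10.77 for E16.5. Eif2s2 was the brightest member at the first 3 stages, and Eif5a at the last 2. Signals of different probe sets are not calibrated against each other, so this order is one of signal and not of RNA. The map of all signals shows the bright rows of Eif2s2, Eif5, Eif1 and Eif5a and the dark ones of Eif3a and Eif2ak2 in early embryos.

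**Figure D1:**
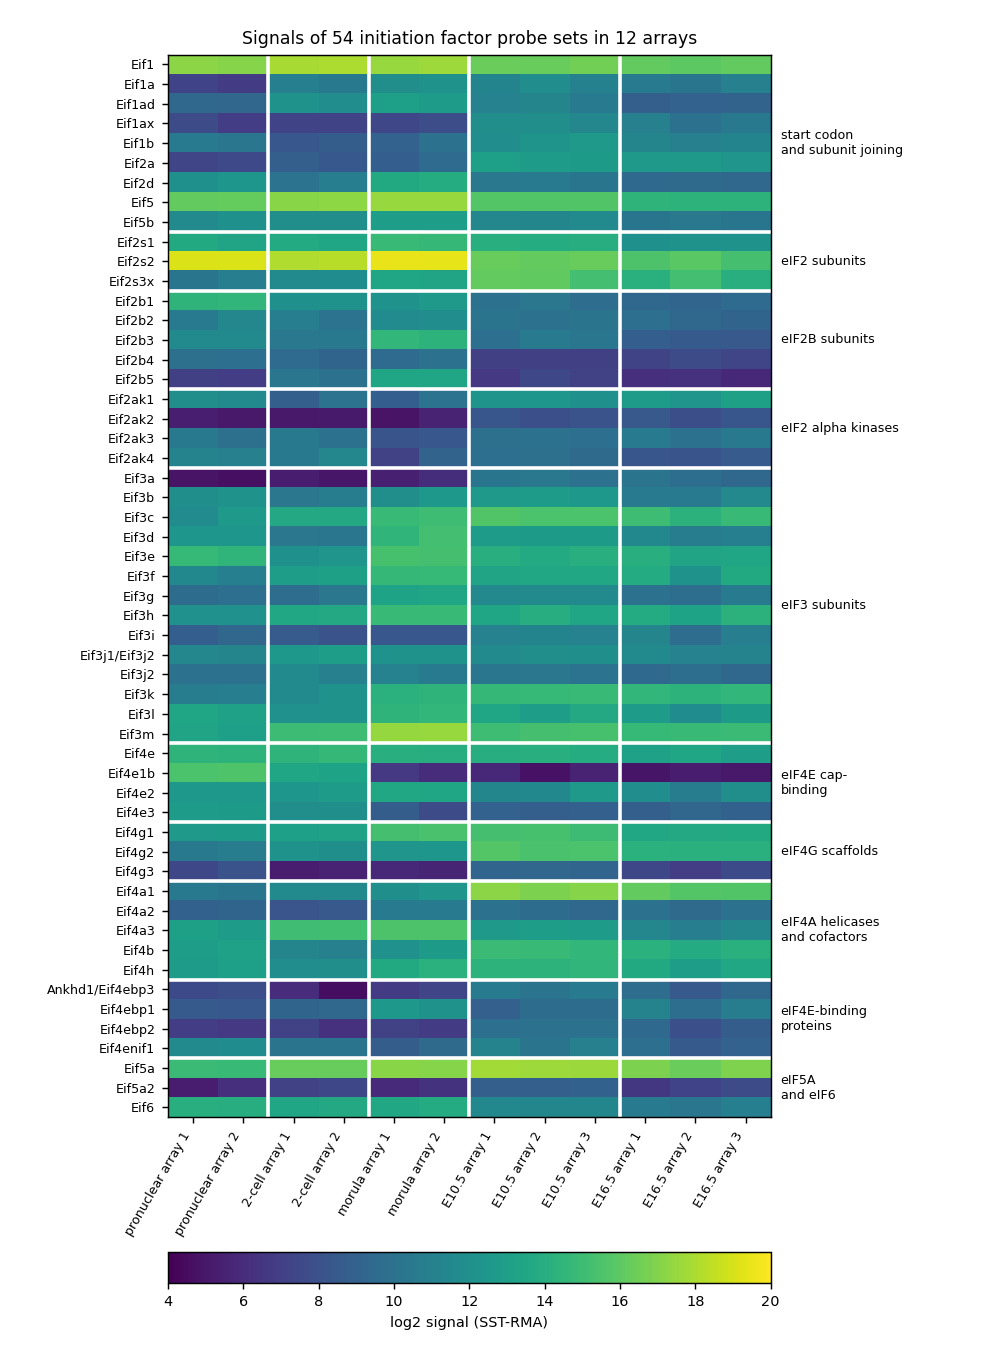
Log2 signals of the 54 initiation factor probe sets (rows, grouped by role) in the 12 arrays (columns, grouped by stage), from dark (4) to yellow (20). Eif4e1b is bright in the 4 arrays of the first 2 stages and dark in the other 8, and Eif4a1 is brightest in the 6 arrays of E10.5 and E16.5.

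Each of the 54 members differed between stages (limma's F test over the 5 stages, adjusted p below 0.05). So did 78.9% of all probe sets. With arrays centred on the receptor median, 53 members did. The authors' deposited false discovery rates lie below 0.05 for all 54. They come from the same signals and pass the same number of probe sets, 17511, so they add no separate evidence. The F test spans both array dates. Eif2ak2, Eif2b4, Eif3a, Eif3i and Eif4e2 passed the step tests below only from morula to E10.5. For them, stage and date cannot be told apart. Changes from each stage to the next were then tested in the same fit, and a member is said to rise or fall only at an adjusted p below 0.05. From the pronuclear to the 2-cell stage, 19 of 54 members rose, where 16.1% of all probe sets did, and 16 fell, where 19.6% did. The members' median change was 0.05 against -0.01 over all probe sets. From there to the morula, 28 rose (background 20%) and 5 fell (background 20.2%), with a median change of 0.89 against 0.11. From the morula to E10.5, 18 rose (background 25%) and 25 fell (background 26.8%), with a median of -0.47 against -0.17. From E10.5 to E16.5, 1 rose (background 17.3%) and 32 fell (background 20.1%), with a median of -0.79 against -0.08. The single rise, that of Eif4ebp1, was lost without E10.5 array 1 or E16.5 array 1. The direction was thus mixed at genome activation, mostly upward to the morula and almost wholly downward after E10.5.

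Most members were brighter than most probe sets, whose median signal lay between 6.19 and 6.56 by stage. Among the 16625 probe sets above the receptor range in at least 2 arrays, 24.1% rose to the morula and 26.1% fell to E16.5, against 51.9% and 59.3% of the members. To E10.5, 32.7% of these probe sets rose and 29% fell, against 33.3% and 46.3% of the members. To the 2-cell stage the same shares were 19.3% and 25%, against 35.2% and 29.6%. Arrays of neighbouring stages did not overlap for 44 members at the first step (81.5%, background 63.4%), 47 at the second (87%, background 64.9%), 52 to E10.5 (96.3%, background 69.4%) and 43 at the last (79.6%, background 49.5%). By their stage means, 22 of 54 members were highest in morulae (40.7%, against 24.2% of all probe sets) and 18 at E10.5 (33.3% against 18.4%). Another 7 were highest in pronuclear embryos, 4 at the 2-cell stage and 3 at E16.5. Of the 54, 12 were called at all 4 steps (22.2%, background 6.99%) and 0 at none (background 23.1%). The backgrounds for overlap, highest stage and number of steps include dim probe sets. Shares without them were not taken, so brightness may account for part of these contrasts. Scaling moved the balance at 2 steps. With arrays centred on the receptor median, which adds 0.48 to every change to E10.5, 23 members rose and 18 fell there, where 33% and 16.2% of all probe sets did. After cyclic loess, 5 rose and 21 fell to E16.5, where 19.4% and 16.7% of all probe sets did. No called member changed its sign under any alternative setting.

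**Figure D2:**
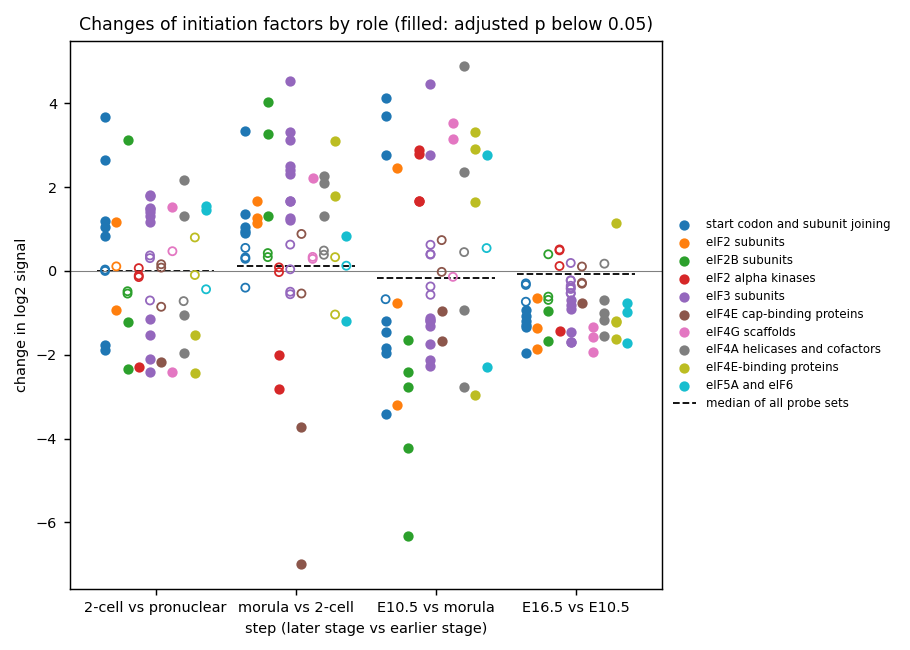
Change in log2 signal of each of the 54 members (points, coloured by role) at the 4 steps between consecutive stages; filled points passed an adjusted p of 0.05 and the dashed line is the median of all probe sets. To the morula 28 filled points lie above 0 and 5 below, and to E16.5 1 lies above and 32 below.

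Among the 9 factors of start codon selection and subunit joining, the paralogs of eIF1A followed one another. eIF1A keeps the small subunit open for scanning, and the mouse encodes it by Eif1a and by the X-linked Eif1ax. Eif1a (mm10, chromosome 18, 46597704 to 46610225) lay at 7.21 and 6.79 in pronuclear pools, 10.89 and 10.45 in 2-cell pools, 11.91 and 12.14 in morula pools, 11.23, 11.81 and 11.01 at E10.5 and 10.61, 10.24 and 10.99 at E16.5. It rose by 3.67 ± 0.34 (SE, adjusted p = 7.61e-07) to the 2-cell stage, by 1.35 ± 0.34 (SE) to the morula and showed no call after that. Eif1ax (chromosome X, 159372178 to 159389928) lay at 7.65 and 6.92 in pronuclear pools, 7.29 and 7.28 in 2-cell pools, 7.44 and 7.78 in morula pools, 11.89, 11.91 and 11.40 at E10.5 and 10.94, 9.96 and 10.46 at E16.5. Its pronuclear and 2-cell arrays overlapped, all 6 early arrays lay below every later array, and it rose by 4.13 ± 0.33 (SE, adjusted p = 4.16e-08) to E10.5. The difference between the paralogs within an array, Eif1a minus Eif1ax, changed by 3.67 ± 0.32 (SE) to the 2-cell stage and by -4.80 ± 0.29 (SE) to E10.5. Over the 5 stages together, the exact permutation test of the F statistic gave p = 4.26e-04 (adjusted p = 5.20e-04). Here and below, such a value covers all stages and no single step.

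Eif1 and Eif1b encode closely similar forms of eIF1, which guards against initiation at the wrong codon. Eif1 (chromosome 11, 100319885 to 100322096) lay at 17.21 and 17.10 in pronuclear pools, 17.92 and 18.06 in 2-cell pools, 17.54 and 17.64 in morula pools, 16.36, 16.26 and 16.56 at E10.5 and 16.17, 15.95 and 16.17 at E16.5. Eif1b (chromosome 9, 120492606 to 120495330) lay at 10.57 and 10.27 in pronuclear pools, 8.34 and 8.73 in 2-cell pools, 9.01 and 9.96 in morula pools, 11.83, 12.31 and 12.59 at E10.5 and 11.31, 10.99 and 11.23 at E16.5. The pair moved in opposite directions first, when Eif1 rose by 0.84 ± 0.26 (SE) to the 2-cell stage and Eif1b fell by 1.88 ± 0.35 (SE) to the 2-cell stage, and again later, when Eif1 fell by 1.19 ± 0.24 (SE) to E10.5 and Eif1b rose by 2.76 ± 0.32 (SE) to E10.5. Eif1 minus Eif1b changed by 2.72 ± 0.30, -1.35 ± 0.30, -3.95 ± 0.28 and 0.77 ± 0.25 (SE) over the 4 steps, and the arrays of neighbouring stages did not overlap at any of them (exact permutation p = 7.22e-06, adjusted p = 5.29e-05). The unadjusted value is the smallest that 12 arrays in these groups can give.

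Eif2d and Eif2a encode factors that can deliver tRNA to the ribosome without eIF2, and they peaked at different times. Eif2d (chromosome 1, 131153181 to 131187658) lay at 12.04 and 12.40 in pronuclear pools, 10.07 and 10.86 in 2-cell pools, 13.69 and 13.92 in morula pools, 10.43, 10.52 and 10.22 at E10.5 and 9.46, 9.52 and 9.41 at E16.5. It rose by 3.34 ± 0.31 (SE, adjusted p = 4.02e-07) to the morula and fell by 3.42 ± 0.28 (SE, adjusted p = 5.84e-08) to E10.5, so that morulae stood above every other stage. Eif2a (chromosome 3, 58525821 to 58557501) lay at 7.33 and 7.55 in pronuclear pools, 8.83 and 8.42 in 2-cell pools, 8.79 and 9.57 in morula pools, 13.05, 12.83 and 12.74 at E10.5 and 12.63, 12.62 and 12.36 at E16.5. All 6 later arrays stood above all 6 earlier ones, and it rose by 3.69 ± 0.28 (SE, adjusted p = 3.07e-08) to E10.5. Eif1ad (chromosome 19, 5366813 to 5371511), named for an eIF1A-like domain, lay at 9.42 and 9.29 in pronuclear pools, 12.21 and 11.82 in 2-cell pools, 13.03 and 12.80 in morula pools, 11.10, 11.26 and 10.53 at E10.5 and 8.87, 9.01 and 9.11 at E16.5. It rose by 2.66 ± 0.30 (SE, adjusted p = 5.27e-06) to the 2-cell stage and fell by 1.97 ± 0.25 (SE, adjusted p = 1.33e-05) to E16.5, the largest fall of any member there. Eif5, which triggers GTP hydrolysis on eIF2, was highest in the morula pools at 17.53 ± 0.04 (SD, n = 2) and lowest at E16.5 at 14.35 ± 0.04 (SD, n = 3). Eif5b rose by 1.05 ± 0.27 (SE) to the morula and fell by 1.46 ± 0.25 (SE) to E10.5. In all, 5 of the 9 rose and 2 fell at the first step, 5 and 0 at the second, 3 and 5 to E10.5 and 0 and 6 at the last. Over all probe sets, 16.1% rose and 19.6% fell at the first step, 20% and 20.2% at the second, 25% and 26.8% to E10.5, and 17.3% and 20.1% at the last.

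The rise of Eif1 to the 2-cell stage did not pass without pronuclear array 1 or 2, or 2-cell array 2, nor under cyclic loess, receptor centring or a fit of the preimplantation arrays (adjusted p = 0.0571 to 0.623). The fall of Eif1 to E10.5 did not pass under receptor centring (adjusted p = 0.0536). The rise of Eif1b to the morula, by 0.95, kept its call in 10 of 21 alternative runs. It did not pass under receptor centring, a replicate block or a fit of the preimplantation arrays (adjusted p = 0.0514 to 0.103), and was 0.47 without morula array 2. That of Eif1ad kept its call in 18 of 21 and did not pass under receptor centring (adjusted p = 0.0582). Receptor and upper-quartile centring, quantile normalization and cyclic loess are other scalings of the arrays, and adjusted p-values of single genes here and below are those of limma over all probe sets.

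The 3 subunits of eIF2 moved in different directions from the morula to E10.5. Eif2s2, the beta subunit (chromosome 2, 154871410 to 154892935), lay at 19.15 and 19.07 in pronuclear pools, 18.09 and 18.25 in 2-cell pools, 19.49 and 19.38 in morula pools, 16.30, 16.15 and 16.26 at E10.5 and 15.56, 15.91 and 15.30 at E16.5. Its lowest early array stood above every later array, and it fell by 3.20 ± 0.25 (SE, adjusted p = 4.34e-08) to E10.5. Eif2s3x, the X-linked gamma subunit that binds GTP and the tRNA (chromosome X, 94188707 to 94212862), lay at 10.24 and 10.84 in pronuclear pools, 11.59 and 11.80 in 2-cell pools, 13.42 and 13.33 in morula pools, 16.18, 16.10 and 15.20 at E10.5 and 14.16, 15.19 and 14.05 at E16.5. It rose by 1.16 ± 0.41 (SE) to the 2-cell stage, by 1.67 ± 0.41 (SE) to the morula and by 2.46 ± 0.38 (SE, adjusted p = 5.11e-05) to E10.5, and fell by 1.36 ± 0.34 (SE) to E16.5. Individuals differed for this gene, with 1 of 3 embryos apart from the other two at E10.5 and at E16.5. Eif2s1, the alpha subunit that the kinases phosphorylate (chromosome 12, 78861819 to 78887010), lay at 13.69 and 13.34 in pronuclear pools, 13.77 and 13.47 in 2-cell pools, 14.86 and 14.65 in morula pools, 14.10, 13.91 and 13.98 at E10.5 and 12.01, 12.22 and 12.14 at E16.5. It rose by 1.14 ± 0.27 (SE, adjusted p = 0.00325) to the morula, and fell by 1.87 ± 0.22 (SE, adjusted p = 7.34e-06) to E16.5. All 3 subunits rose to the morula and all 3 fell to E16.5, while to E10.5 Eif2s3x rose and the other two fell. Of all probe sets, 20% rose to the morula and 20.1% fell to E16.5, and to E10.5 25% rose and 26.8% fell.

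The fall of Eif2s1 to E10.5 did not pass without morula array 1, or E10.5 array 2, nor under receptor centring (adjusted p = 0.0540 to 0.421). The rise of Eif2s2 to the morula did not pass under cyclic loess (adjusted p = 0.264). The fall of Eif2s2 to E16.5 did not pass without E10.5 array 1, 2 or 3, or E16.5 array 1 or 3, nor under quantile normalization, cyclic loess, receptor centring, upper-quartile centring or the replicate block (adjusted p = 0.0540 to 0.388). The rise of Eif2s3x to the 2-cell stage did not pass without pronuclear array 1, or 2-cell array 1 or 2, nor under cyclic loess or receptor centring (adjusted p = 0.0623 to 0.241). The fall of Eif2s3x to E16.5 did not pass under cyclic loess (adjusted p = 0.0773).

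The subunits of eIF2B, the factor that reloads eIF2 with GTP, were highest in morulae or earlier and all 5 fell by 1.65 to 6.33 to E10.5, the step at which 26.8% of all probe sets fell. The catalytic epsilon subunit Eif2b5 (chromosome 16, 20498817 to 20509955) lay at 7.06 and 6.94 in pronuclear pools, 10.28 and 9.97 in 2-cell pools, 13.38 and 13.41 in morula pools, 6.64, 7.46 and 7.10 at E10.5 and 6.25, 6.27 and 5.81 at E16.5. It rose by 3.13 ± 0.31 (SE, adjusted p = 1.38e-06) to the 2-cell stage, by 3.27 ± 0.31 (SE, adjusted p = 6.51e-07) to the morula and fell by 6.33 ± 0.29 (SE, adjusted p = 8.85e-11) to E10.5. That last value was the largest fall of any member at this step. The gamma subunit Eif2b3 (chromosome 4, 117019402 to 117087306) lay at 11.67 and 11.62 in pronuclear pools, 10.39 and 10.47 in 2-cell pools, 14.58 and 14.36 in morula pools, 9.82, 10.66 and 10.27 at E10.5 and 8.75, 8.55 and 8.46 at E16.5. It fell by 1.21 ± 0.30 (SE) to the 2-cell stage, rose by 4.04 ± 0.30 (SE, adjusted p = 4.75e-08) to the morula and fell by 4.22 ± 0.28 (SE, adjusted p = 5.10e-09) to E10.5. Both subunits of the catalytic part thus stood apart in the 2 morula arrays from all 10 others. In the regulatory part, the alpha subunit Eif2b1 (chromosome 5, 124570213 to 124579131) was highest in the pronuclear pools at 14.38 and 14.51 and lay at 12.04 and 12.17 in the 2-cell pools, 12.24 and 12.62 in the morula pools, 10.00, 10.32 and 9.73 in E10.5 embryos and 9.44, 9.20 and 9.57 in E16.5 embryos. It fell by 2.34 ± 0.29 (SE, adjusted p = 1.27e-05) to the 2-cell stage and fell by 2.42 ± 0.27 (SE, adjusted p = 1.59e-06) to E10.5. Eif2b2 rose by 1.30 ± 0.35 (SE) to the morula and fell by 1.65 ± 0.32 (SE) to E10.5, and Eif2b4 fell by 2.77 ± 0.26 (SE) to E10.5 with no call at the other steps.

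All 4 kinases of eIF2 alpha rose to E10.5, where 25% of all probe sets rose. Eif2ak1, the haem-regulated kinase of red cell precursors (chromosome 5, 143817788 to 143904256), lay at 11.91 and 11.61 in pronuclear pools, 8.84 and 10.09 in 2-cell pools, 8.81 and 10.07 in morula pools, 12.29, 12.38 and 12.02 at E10.5 and 12.83, 12.33 and 13.07 at E16.5. It fell by 2.29 ± 0.44 (SE, adjusted p = 7.28e-04) to the 2-cell stage and rose by 2.79 ± 0.40 (SE, adjusted p = 2.85e-05) to E10.5. Of the 7 listed erythroid markers, 6 are given here. They averaged 5.44 to 5.52 over the morula arrays, 11.84 to 12.17 over the E10.5 arrays and 8.80 to 9.30 over the E16.5 arrays. Klf1, Epb42, Hbb-y and Hbb-bh1 lay within the receptor range in morulae, and Hbb-bh1 did so at E16.5. The globin genes Hbb-y and Hbb-bh1 are also among the 5 E10.5 markers, which averaged 6.93 to 7.01 over the E16.5 arrays. The part of the erythroid markers in the rise of Eif2ak1 was not tested. Eif2ak2, the kinase that senses double-stranded RNA (chromosome 17, 78852550 to 78882573), lay at 5.33 and 5.11 in pronuclear pools, 5.06 and 5.16 in 2-cell pools, 4.84 and 5.55 in morula pools, 8.25, 7.92 and 8.10 at E10.5 and 8.48, 7.87 and 8.27 at E16.5. The 6 early arrays stayed within the receptor range, so its rise by 2.89 ± 0.29 (SE, adjusted p = 4.98e-07) is a lower bound. The 5 leukocyte markers averaged 5.93 to 6.29 in morula arrays, 5.99 to 6.38 at E10.5 and 9.29 to 9.74 at E16.5. Ptprc, Lyz2 and Csf1r lay within the receptor range in morulae, and Lyz2 did so at E10.5. Eif2ak3, which responds to stress of the endoplasmic reticulum (chromosome 6, 70844515 to 70905245), lay at 10.46 and 9.91 in pronuclear pools, 10.44 and 10.06 in 2-cell pools, 8.14 and 8.33 in morula pools, 9.90, 9.99 and 9.85 at E10.5 and 10.66, 10.06 and 10.50 at E16.5. Eif2ak4, which senses uncharged tRNA (chromosome 2, 118388617 to 118475234), lay at 11.17 and 10.97 in pronuclear pools, 10.46 and 11.38 in 2-cell pools, 7.11 and 9.08 in morula pools, 9.85, 9.93 and 9.54 at E10.5 and 8.27, 8.14 and 8.58 at E16.5. Both had their lowest stage mean in morulae: Eif2ak3 fell by 2.02 ± 0.30 (SE, adjusted p = 6.61e-05) to the morula and Eif2ak4 fell by 2.83 ± 0.49 (SE, adjusted p = 2.22e-04) to the morula, and each rose by 1.68 to E10.5.

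The rise of Eif2b2 to the morula did not pass without 2-cell array 2 (adjusted p = 0.0832). The rise of Eif2ak4 to E10.5 did not pass without morula array 1 (adjusted p = 0.160). Without morula array 1, Eif2ak4 fell by 1.85 to the morula and its change to E10.5 was 0.70, and its lowest stage mean was that of E16.5. Without morula array 2, it rose by 2.66 to E10.5.

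**Figure D3:**
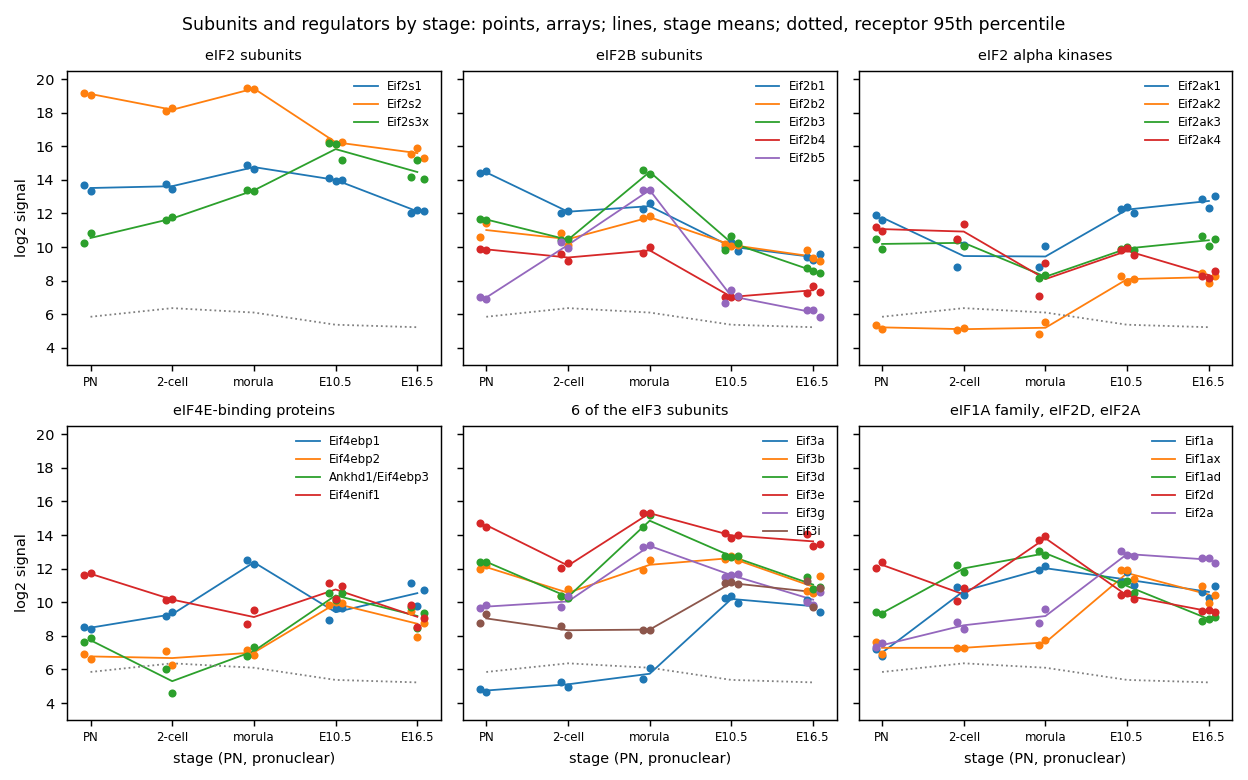
Log2 signal of eIF2, eIF2B, the eIF2 alpha kinases, the eIF4E-binding proteins, 6 eIF3 subunits and 5 factors of the eIF1A, eIF2D and eIF2A group, by stage (PN, pronuclear). Points are arrays, lines join stage means, and the dotted line is the 95th percentile of receptor probe sets. Eif2b3 and Eif2b5 peak in morulae at 14.47 and 13.39, and Eif2ak2 and Eif3a rise above the dotted line only at E10.5 and E16.5.

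The 14 probe sets of eIF3, the large complex that bridges the small subunit and eIF4G, rose more often than they fell up to the morula. In the main setting they fell more often afterwards, but the balance to E10.5 depended on the scaling of the arrays, as given below. Of these, 7 rose and 4 fell to the 2-cell stage, 10 rose and 0 fell to the morula, 2 rose and 7 fell to E10.5, and 0 rose and 6 fell to E16.5. The shares of all probe sets that rose and fell were 16.1% and 19.6%, 20% and 20.2%, 25% and 26.8%, and 17.3% and 20.1% at these 4 steps. Medians were 0.77, 1.67, -0.85 and -0.53. Eif3d, a subunit that can itself bind the cap of some mRNAs (chromosome 15, 77958998 to 77970824), lay at 12.41 and 12.40 in pronuclear pools, 10.37 and 10.26 in 2-cell pools, 14.49 and 15.21 in morula pools, 12.77, 12.70 and 12.74 at E10.5 and 11.49, 10.77 and 10.88 at E16.5. It fell by 2.09 ± 0.32 (SE, adjusted p = 8.72e-05) to the 2-cell stage, then rose by 4.54 ± 0.32 (SE, adjusted p = 2.44e-08) to the morula, more than any other member, and fell by 2.12 ± 0.29 (SE, adjusted p = 1.62e-05) to E10.5. Eif3g, an RNA-binding subunit (chromosome 9, 20894349 to 20898600), lay at 9.63 and 9.85 in pronuclear pools, 9.73 and 10.36 in 2-cell pools, 13.30 and 13.40 in morula pools, 11.52, 11.64 and 11.67 at E10.5 and 10.02, 9.81 and 10.63 at E16.5. It rose by 3.31 ± 0.32 (SE, adjusted p = 7.57e-07) to the morula. Eif3e (chromosome 15, 43250040 to 43282736) lay at 14.71 and 14.47 in pronuclear pools, 12.04 and 12.32 in 2-cell pools, 15.31 and 15.29 in morula pools, 14.09, 13.81 and 14.03 at E10.5 and 14.05, 13.33 and 13.49 at E16.5. It fell by 2.41 ± 0.30 (SE, adjusted p = 1.21e-05) to the 2-cell stage before it rose by 3.12 ± 0.30 (SE, adjusted p = 6.49e-07) to the morula. Eif3d, Eif3e, Eif3b and Eif3l all fell to the 2-cell stage and rose to the morula.

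Another 5 subunits rose at both of these steps. Eif3f (chromosome 7, 108934415 to 108942951) lay at 11.44 and 10.93 in pronuclear pools, 12.93 and 13.07 in 2-cell pools, 14.65 and 14.71 in morula pools, 13.33, 13.57 and 13.57 at E10.5 and 13.82, 12.25 and 13.73 at E16.5. It rose by 1.82 ± 0.42 (SE, adjusted p = 0.00317) to the 2-cell stage and by 1.68 ± 0.42 (SE, adjusted p = 0.00480) to the morula. Eif3m rose by 1.79 ± 0.26 (SE) to the 2-cell stage and by 2.50 ± 0.26 (SE) to the morula and reached 17.49 ± 0.04 (SD, n = 2). Eif3c, Eif3h and Eif3k also rose at both steps, by 1.16 to 2.41. Eif3a and Eif3i were not called before E10.5. Eif3a, the largest scaffold subunit (chromosome 19, 60761116 to 60790693), lay at 4.84 and 4.65 in pronuclear pools, 5.25 and 4.98 in 2-cell pools, 5.42 and 6.07 in morula pools, 10.24, 10.39 and 9.96 at E10.5 and 10.13, 9.77 and 9.40 at E16.5. Its means stayed within the receptor range at the first 3 stages, when the other 13 probe sets of the complex lay above it, and its rise to E10.5 by 4.45 ± 0.30 (SE, adjusted p = 6.35e-09) is therefore a lower bound. Eif3i, a subunit shaped as a propeller (chromosome 4, 129591960 to 129600648), lay at 8.76 and 9.31 in pronuclear pools, 8.60 and 8.07 in 2-cell pools, 8.37 and 8.37 in morula pools, 11.12, 11.22 and 11.08 at E10.5 and 11.27, 9.72 and 10.83 at E16.5. It rose by 2.77 ± 0.38 (SE, adjusted p = 1.47e-05) to E10.5. Eif3b fell by 1.70 ± 0.29 (SE) to E16.5, from 12.57, 12.78 and 12.54 in the 3 embryos of E10.5 and with 10.69, 10.53 and 11.56 in the others. Eif3j2 and the probe set shared by Eif3j1 and Eif3j2, loosely bound subunits, rose by 1.32 ± 0.31 (SE, adjusted p = 0.00352) and 1.40 ± 0.29 (SE, adjusted p = 0.00143) to the 2-cell stage, and the probes may not tell these close copies apart.

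The fall of Eif3l to the 2-cell stage did not pass without pronuclear array 1 or 2, or 2-cell array 1 or 2 (adjusted p = 0.0515 to 0.115). The rise of Eif3c to the 2-cell stage did not pass without pronuclear array 1 (adjusted p = 0.0569). The rise of Eif3c to the morula did not pass under cyclic loess (adjusted p = 0.0633). Under receptor centring, the falls of Eif3f, Eif3h and Eif3l to E10.5 did not pass (adjusted p = 0.124 to 0.209). Eif3c and Eif3k rose at that step under the same centring (adjusted p = 0.0205 and 0.0267). Under cyclic loess, the falls of Eif3c, Eif3j2 and Eif3l to E16.5 did not pass (adjusted p = 0.325 to 0.644). The rise of Eif3j2 to the 2-cell stage did not pass without 2-cell array 1 (adjusted p = 0.0508).

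Among the 4 cap-binding proteins, the oocyte form fell furthest while the common form passed the test only at the last step. Eif4e1b (chromosome 13, 54783998 to 54788459), an eIF4E relative known from oocytes, lay at 15.47 and 15.56 in pronuclear pools, 13.39 and 13.31 in 2-cell pools, 6.68 and 6.04 in morula pools, 5.84, 4.80 and 5.54 at E10.5 and 4.94, 5.26 and 5.07 at E16.5. It fell by 2.17 ± 0.34 (SE, adjusted p = 1.31e-04) to the 2-cell stage and fell by 6.99 ± 0.34 (SE, adjusted p = 6.39e-10) to the morula, the largest change of any member at any step, and was within the receptor range at E16.5. Eif4e itself (chromosome 3, 138526191 to 138557599) lay at 14.38 and 14.36 in pronuclear pools, 14.42 and 14.65 in 2-cell pools, 14.04 and 13.95 in morula pools, 13.98, 14.05 and 13.89 at E10.5 and 13.15, 13.49 and 12.97 at E16.5. Its 12 arrays spanned less than 2 log2 units, and it fell by 0.77 ± 0.22 (SE, adjusted p = 0.0127) to E16.5. Eif4e minus Eif4e1b changed by 2.33 ± 0.37 (SE) to the 2-cell stage and by 6.45 ± 0.37 (SE) to the morula (exact permutation p = 1.37e-04, adjusted p = 2.51e-04). The 6 cumulus and granulosa markers averaged 8.99 to 9.12 in the pronuclear pools, 7.82 to 8.08 at the 2-cell stage and 5.79 to 5.87 in morulae. Amh lay within the receptor range throughout, Has2 also at the 2-cell stage, and Ptgs2 and Tnfaip6 also in morulae. The 5 maternal oocyte markers averaged 16.31 to 16.36 in pronuclear, 13.78 to 13.81 in 2-cell and 6.29 to 6.89 in morula arrays, where Mos and Tcl1 lay within the receptor range. The part of carried-over cells in the fall of Eif4e1b was not tested.

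Eif4e3, an atypical cap-binding protein (chromosome 6, 99625135 to 99666771), was also highest in pronuclear pools but stayed above the receptor range at every stage. It lay at 12.80 and 12.75 in pronuclear pools, 11.89 and 11.94 in 2-cell pools, 8.71 and 7.65 in morula pools, 9.01, 8.86 and 8.88 at E10.5 and 8.83, 9.29 and 8.95 at E16.5. It fell by 3.74 ± 0.33 (SE, adjusted p = 2.89e-07) to the morula. Eif4e2, or 4EHP, which competes for the cap and represses translation (chromosome 1, 87213914 to 87240488), lay at 12.55 and 12.51 in pronuclear pools, 12.39 and 12.82 in 2-cell pools, 13.59 and 13.39 in morula pools, 11.37, 11.49 and 12.57 at E10.5 and 11.86, 10.81 and 11.90 at E16.5. It fell by 1.68 ± 0.39 (SE, adjusted p = 0.00187) to E10.5. Eif4e2 minus Eif4e3 changed by 4.62 ± 0.64 (SE) to the morula and by -2.42 ± 0.58 (SE) to E10.5 (exact permutation p = 3.82e-04, adjusted p = 5.20e-04). Eif4e minus Eif4e2 did not pass over the 5 stages (exact permutation p = 0.160, adjusted p = 0.160). Its changes were 0.08 ± 0.61, -1.42 ± 0.61, 1.66 ± 0.56 and -0.49 ± 0.50 (SE). It passed without E16.5 array 2 (adjusted p = 0.0351).

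Eif4e1b is known to act with proteins that store mRNA in the oocyte. Of 11 measured genes of that complex, 6 fell and 1 rose to the 2-cell stage, and 8 fell and 0 rose to the morula, with medians of -1.08 and -3.52 (background 16.1% higher and 19.6% lower, then 20% and 20.2%). To E10.5, 4 rose and 5 fell (background 25% and 26.8%), and to E16.5 1 and 3 (background 17.3% and 20.1%). Zar1, an RNA-binding protein of the egg, fell by 5.35 ± 0.33 (SE) to the 2-cell stage and then fell by 5.80 ± 0.33 (SE) to the morula, and Dazl fell by 6.20 ± 0.36 (SE) to the morula. Patl2, an oocyte protein of mRNA storage, fell by 4.86 ± 0.37 (SE) to the 2-cell stage and so into the receptor range, which makes this a lower bound. Some rose at later steps. Lsm14b, highest in pronuclear embryos at 13.42 and lowest in morulae at 7.40, rose by 4.24 ± 0.25 (SE) to E10.5 and fell by 2.00 ± 0.22 (SE) to E16.5. Ddx6, a helicase of mRNA granules, rose by 3.22 ± 0.35 (SE) to E10.5. Cpeb4, which binds elements in mRNA tails, was highest at the 2-cell stage at 10.92 and fell by 3.97 ± 0.37 (SE) to the morula. It rose by 1.46 ± 0.30 (SE) to E16.5, where it reached 9.89. Eif4enif1, which encodes the eIF4E transporter 4E-T, a partner in this storage (chromosome 11, 3202353 to 3244588), lay at 11.63 and 11.76 in pronuclear pools, 10.15 and 10.17 in 2-cell pools, 8.70 and 9.54 in morula pools, 11.16, 10.17 and 10.95 at E10.5 and 9.83, 8.53 and 9.04 at E16.5. It fell by 1.54 ± 0.43 (SE, adjusted p = 0.0103) to the 2-cell stage, rose by 1.64 ± 0.39 (SE, adjusted p = 0.00232) to E10.5 and fell by 1.63 ± 0.35 (SE) to E16.5. The fall of Eif4e to E16.5 did not pass without E16.5 array 3, nor under cyclic loess or upper-quartile centring (adjusted p = 0.0560 to 0.440). The fall of Eif4enif1 to the 2-cell stage did not pass without pronuclear array 2 (adjusted p = 0.0584).

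Among the eIF4G scaffolds, Eif4g1 rose to the morula and the other two to E10.5. Eif4g1 (chromosome 16, 20668313 to 20692884) lay at 12.62 and 12.71 in pronuclear pools, 13.04 and 13.23 in 2-cell pools, 15.28 and 15.42 in morula pools, 15.29, 15.35 and 15.00 at E10.5 and 13.50, 13.63 and 13.74 at E16.5. It rose by 2.22 ± 0.27 (SE, adjusted p = 7.01e-06) to the morula. Eif4g2, also called DAP5, which lacks the eIF4E-binding part (chromosome 7, 111067750 to 111083030), lay at 10.44 and 10.71 in pronuclear pools, 12.24 and 11.95 in 2-cell pools, 12.37 and 12.39 in morula pools, 15.69, 15.40 and 15.49 at E10.5 and 14.23, 14.17 and 14.13 at E16.5. It rose by 1.52 ± 0.27 (SE, adjusted p = 3.21e-04) to the 2-cell stage and by 3.15 ± 0.24 (SE, adjusted p = 3.24e-08) to E10.5. Eif4g3 (chromosome 4, 137993022 to 138208508) lay at 7.45 and 8.11 in pronuclear pools, 5.20 and 5.53 in 2-cell pools, 5.76 and 5.64 in morula pools, 9.20, 9.30 and 9.22 at E10.5 and 7.44, 6.89 and 7.56 at E16.5. It fell by 2.42 ± 0.31 (SE, adjusted p = 1.95e-05) to the 2-cell stage and so into the receptor range, stayed there in morulae, and rose by 3.54 ± 0.29 (SE, adjusted p = 5.42e-08) to E10.5, so both sizes are lower bounds. Eif4g1 minus Eif4g2 changed by 1.93 ± 0.21 (SE) to the morula and by -3.29 ± 0.19 (SE) to E10.5 (exact permutation p = 2.16e-05, adjusted p = 5.95e-05). Eif4g1 minus Eif4g3 changed by 2.89 ± 0.27 (SE) to the 2-cell stage and by -3.68 ± 0.25 (SE) to E10.5 (exact permutation p = 1.44e-05, adjusted p = 5.29e-05). All 3 scaffolds fell by 1.35 to 1.94 to E16.5, where 20.1% of all probe sets fell. Eif4g3 fell by 1.94 ± 0.26 (SE, adjusted p = 2.16e-05) to E16.5.

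The helicase paralogs Eif4a1 and Eif4a2, which unwind the mRNA ahead of the ribosome, parted at E10.5. Eif4a1 (chromosome 11, 69666936 to 69672423) lay at 10.45 and 10.25 in pronuclear pools, 11.69 and 11.64 in 2-cell pools, 11.97 and 12.32 in morula pools, 17.21, 16.84 and 17.09 at E10.5 and 16.18, 15.74 and 15.67 at E16.5. It rose by 1.31 ± 0.29 (SE, adjusted p = 0.00200) to the 2-cell stage and by 4.90 ± 0.26 (SE, adjusted p = 5.63e-10) to E10.5, the largest rise of any member, and all 6 later arrays stood above all 6 earlier ones. The Eif4a2 probe set (chromosome 16, 23107444 to 23114136) lay at 8.96 and 9.17 in pronuclear pools, 8.21 and 8.49 in 2-cell pools, 10.65 and 10.59 in morula pools, 10.01, 9.66 and 9.40 at E10.5 and 10.05, 9.50 and 10.04 at E16.5. It rose by 2.27 ± 0.30 (SE, adjusted p = 2.08e-05) to the morula and fell by 0.93 ± 0.28 (SE) to E10.5. Eif4a1 minus Eif4a2 changed by 2.03 ± 0.29, -1.79 ± 0.29, 5.83 ± 0.27 and -1.36 ± 0.24 (SE) over the steps, with no overlap of neighbouring stages at any of them (exact permutation p = 1.44e-05, adjusted p = 5.29e-05). Eif4a3, whose protein marks exon junctions rather than driving initiation (chromosome 11, 119288363 to 119300089), lay at 13.10 and 12.86 in pronuclear pools, 15.11 and 15.18 in 2-cell pools, 15.51 and 15.55 in morula pools, 12.58, 12.93 and 12.78 at E10.5 and 11.40, 10.81 and 11.42 at E16.5. It rose by 2.17 ± 0.29 (SE, adjusted p = 2.69e-05) to the 2-cell stage and fell by 2.76 ± 0.27 (SE) to E10.5. The helicase cofactors Eif4b (chromosome 15, 102073773 to 102097173) and Eif4h (chromosome 5, 134619876 to 134639348) fell together to the 2-cell stage and rose together to the morula. Eif4b lay at 12.98 and 13.16 in pronuclear pools, 11.27 and 10.97 in 2-cell pools, 12.09 and 12.74 in morula pools, 14.91, 14.80 and 14.61 at E10.5 and 14.20, 13.87 and 14.17 at E16.5. It rose by 2.36 ± 0.27 (SE, adjusted p = 2.58e-06) to E10.5. Eif4h lay at 12.79 and 13.03 in pronuclear pools, 11.81 and 11.91 in 2-cell pools, 13.71 and 14.22 in morula pools, 14.32, 14.37 and 14.55 at E10.5 and 13.70, 12.92 and 13.62 at E16.5. It had no call at the step to E10.5. Eif4b minus Eif4h changed by 1.91 ± 0.21 (SE) there (exact permutation p = 3.03e-04, adjusted p = 4.76e-04).

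Promoter sequences were read for members of these paralog families, with the changes of Eif4a1 and Eif4a2 already known. Eif4e is a textbook target of Myc, which binds the E-box CACGTG. The 250 bases before the annotated start (RefSeq, GRCm38.p6, 5′ to 3′) are given for Eif4e (chr3:138527018-138527267 on the plus strand), Eif4a1 (chr11:69672424-69672673 on the minus strand), Eif4a2 (chr16:23107218-23107467 on the plus strand) and Eif5a2 (chr3:28781027-28781276 on the plus strand). Capitals mark CACGTG, which reads the same on both strands, and CCGGAAG, a core of ETS factor sites, searched on both strands; the 2 motifs share no bases here.
Eif4e: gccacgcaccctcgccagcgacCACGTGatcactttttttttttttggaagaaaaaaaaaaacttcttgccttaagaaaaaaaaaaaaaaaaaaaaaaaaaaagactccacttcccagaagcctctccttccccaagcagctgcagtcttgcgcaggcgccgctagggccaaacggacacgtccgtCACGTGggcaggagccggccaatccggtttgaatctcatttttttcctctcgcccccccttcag
Eif4a1: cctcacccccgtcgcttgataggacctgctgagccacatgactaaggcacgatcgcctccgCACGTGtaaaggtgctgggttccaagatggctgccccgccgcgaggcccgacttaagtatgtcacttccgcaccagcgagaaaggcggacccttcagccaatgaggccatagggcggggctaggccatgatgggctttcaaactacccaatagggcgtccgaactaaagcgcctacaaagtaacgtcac
Eif4a2: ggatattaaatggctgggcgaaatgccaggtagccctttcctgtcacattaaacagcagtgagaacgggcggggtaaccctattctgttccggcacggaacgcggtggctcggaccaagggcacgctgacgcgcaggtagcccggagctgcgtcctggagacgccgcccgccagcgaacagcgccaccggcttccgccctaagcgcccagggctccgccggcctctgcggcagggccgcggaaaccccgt
Eif5a2: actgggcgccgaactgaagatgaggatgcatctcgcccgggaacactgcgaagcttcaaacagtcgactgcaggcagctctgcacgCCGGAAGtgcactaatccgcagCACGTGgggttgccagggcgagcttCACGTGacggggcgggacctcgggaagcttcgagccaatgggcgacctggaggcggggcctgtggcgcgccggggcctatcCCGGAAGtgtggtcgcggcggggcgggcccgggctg
Eif4e held CACGTG 2 times, Eif4a1 1 time and Eif5a2 2 times, and Eif4a2 held neither motif. Where a gene had several entries, the one with the most copies of the 2 motifs was printed. The counts are therefore those of the entry richest in motifs. The window of Eif4e lies inside the span of its probe set, after the start of that span. Eif5a2 also held CCGGAAG 2 times. Of the 54 member genes, 42 had an entry in the RefSeq promoter table, with 55 promoters. CACGTG was found in 11 of these 55 (20%, in 9 genes) and in 6.02% of all 32851 promoters in windows of the same length. CCGGAAG was found in 12 of 55 (21.8%) and in 6.91% of all. Member promoters are richer in G and C (median 61.2%) than all promoters (52.4%), and some genes have several overlapping entries. The 9 genes with CACGTG were Eif1b, Eif3f, Eif3k, Eif4a1, Eif4e, Eif4g1, Eif4h, Eif5a and Eif5a2. Their changes ran in both directions both to the 2-cell stage and to E10.5. Any part of the 2 motifs in the changes of these genes or in the parting of paralogs was not tested.

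The fall of Eif4a2 to E10.5 did not pass without morula array 1, or E10.5 array 3, nor under receptor centring (adjusted p = 0.0506 to 0.295). The fall of Eif4h to the 2-cell stage did not pass without pronuclear array 2, or 2-cell array 1 (adjusted p = 0.0719 to 0.103).

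The 4E-binding proteins, which block the union of eIF4E with eIF4G until mTOR phosphorylates them, moved in opposite directions from morula to E10.5. Eif4ebp1 (chromosome 8, 27260327 to 27275656) lay at 8.53 and 8.44 in pronuclear pools, 9.17 and 9.40 in 2-cell pools, 12.50 and 12.25 in morula pools, 8.93, 9.64 and 9.65 at E10.5 and 11.14, 9.77 and 10.71 at E16.5. It rose by 3.09 ± 0.40 (SE, adjusted p = 1.31e-05) to the morula, fell by 2.97 ± 0.36 (SE, adjusted p = 4.71e-06) to E10.5, and was the single member that rose to E16.5, by 1.13 ± 0.32 (SE, adjusted p = 0.0112). The highest embryo of E10.5 lay just below the lowest of E16.5, so the groups did not overlap but nearly met. Eif4ebp2, the form known from neurons (chromosome 10, 61432493 to 61452766), lay at 6.91 and 6.64 in pronuclear pools, 7.09 and 6.27 in 2-cell pools, 7.14 and 6.87 in morula pools, 9.82, 10.00 and 9.94 at E10.5 and 9.50, 7.93 and 8.74 at E16.5. It rose by 2.91 ± 0.38 (SE, adjusted p = 1.04e-05) to E10.5 and fell by 1.20 ± 0.34 (SE) to E16.5. The 5 neuron markers averaged 5.24 to 5.36 in morula arrays, 10.30 to 10.53 at E10.5 and 11.45 to 12.22 at E16.5, with Snap25, Syt1 and Stmn2 within the receptor range in morulae, and their part in the rise was not tested. Eif4ebp1 minus Eif4ebp2 changed by 2.76 ± 0.34 to the morula, -5.88 ± 0.31 to E10.5 and 2.33 ± 0.28 to E16.5 (SE), with no overlap of neighbouring stages (exact permutation p = 2.89e-05, adjusted p = 6.35e-05). The probe set shared by Ankhd1 and Eif4ebp3 (chromosome 18, 36559987 to 36666324) lay at 7.61 and 7.87 in pronuclear pools, 6.01 and 4.60 in 2-cell pools, 6.83 and 7.36 in morula pools, 10.53, 10.16 and 10.52 at E10.5 and 9.75, 8.45 and 9.35 at E16.5. It fell by 2.44 ± 0.46 (SE, adjusted p = 5.50e-04) to the 2-cell stage and so into the receptor range, and rose by 3.31 ± 0.42 (SE, adjusted p = 6.72e-06) to E10.5. The rise of Eif4ebp1 to E16.5 did not pass without E10.5 array 1, or E16.5 array 1 (adjusted p = 0.0670 to 0.0691). The fall of Eif4ebp2 to E16.5 did not pass without E16.5 array 2 (adjusted p = 0.0550).

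eIF5A, which carries the modified residue hypusine and helps ribosomes through difficult peptide bonds, is encoded by the widely used Eif5a and the more restricted Eif5a2. Eif5a (chromosome 11, 69916712 to 69921958) lay at 14.90 and 14.80 in pronuclear pools, 16.31 and 16.29 in 2-cell pools, 17.16 and 17.11 in morula pools, 17.79, 17.64 and 17.61 at E10.5 and 16.81, 16.35 and 16.92 at E16.5. It rose by 1.45 ± 0.28 (SE, adjusted p = 6.38e-04) to the 2-cell stage, and fell by 0.99 ± 0.23 (SE) to E16.5. Eif5a2 (chromosome 3, 28781311 to 28798846) lay at 5.29 and 6.24 in pronuclear pools, 7.19 and 7.44 in 2-cell pools, 5.89 and 6.36 in morula pools, 8.86, 8.86 and 8.96 at E10.5 and 6.59, 7.20 and 7.72 at E16.5. It rose out of the receptor range by 1.55 ± 0.38 (SE, adjusted p = 0.00467), fell by 1.19 ± 0.38 (SE) to the morula, rose by 2.77 ± 0.35 (SE, adjusted p = 6.87e-06) to E10.5 and fell by 1.72 ± 0.31 (SE, adjusted p = 3.98e-04) to E16.5. Eif5a minus Eif5a2 changed by 2.03 ± 0.46 (SE) to the morula and by -2.22 ± 0.42 (SE) to E10.5 (exact permutation p = 0.0260, adjusted p = 0.0286). That pair did not pass without morula array 1 or 2, E10.5 array 2 or 3, or E16.5 array 1 (adjusted p = 0.0523 to 0.0940). Eif6, which holds the large subunit apart until it is ready to join (chromosome 2, 155819832 to 155826925), lay at 14.03 and 13.95 in pronuclear pools, 13.43 and 13.67 in 2-cell pools, 13.52 and 13.84 in morula pools, 11.44, 11.36 and 11.35 at E10.5 and 10.65, 10.29 and 10.88 at E16.5. All 6 later arrays lay below all 6 earlier ones, and it fell by 2.29 ± 0.26 (SE, adjusted p = 2.10e-06) to E10.5. The rise of Eif5a2 to the 2-cell stage did not pass without pronuclear array 1 (adjusted p = 0.0795). The fall of Eif5a2 to the morula did not pass without 2-cell array 2, or morula array 1, nor under upper-quartile centring (adjusted p = 0.0530 to 0.135).

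Paralogs were compared by the change of their difference within each array, in 11 pairs. The F statistic over the 5 stages was set against all 1663200 assignments of the 12 arrays to stages, and p-values were adjusted over the 11 pairs. This test has no direction, and its p-value belongs to no single step. The assignments also cross the array dates, so the test does not part stage from date. In 10 of 11 the paralogs changed unequally at an adjusted p of 0.05, and the exception was Eif4e with Eif4e2. These pairs share members (Eif4e, Eif4e2 and Eif4g1 each stand in more than 1), so they are not independent of each other. A permutation test of 2 pools against 2 cannot give less than 0.333, and 2 or 3 arrays against 3 embryos cannot give less than 0.1, so single steps are described by their size and by whether arrays overlap. An unequal change does not say that either gene held its level.

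**Figure D4:**
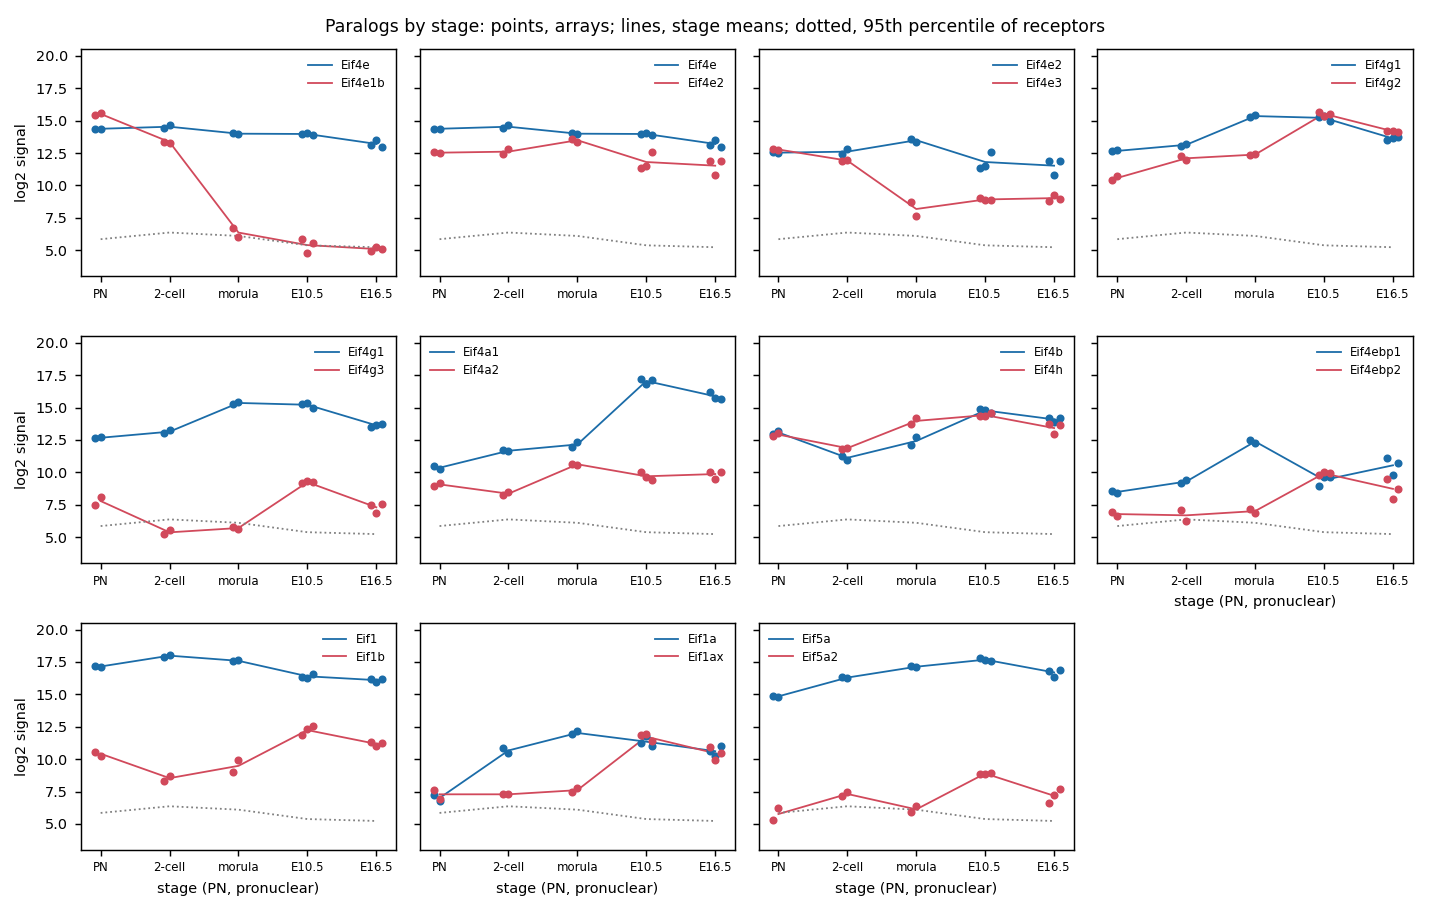
Log2 signal of the 11 paralog pairs by stage (PN, pronuclear), 1 pair to a panel. Points are arrays, lines join stage means, and the dotted line is the 95th percentile of receptor probe sets. Eif4e1b falls to the dotted line while Eif4e stays near 14, and Eif1ax passes the test for a rise only at E10.5.

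Other genes of translation were described by counts and by their largest changes. Of 28 initiation partners and mTOR pathway genes, 13 rose and 8 fell to the 2-cell stage, 9 and 7 to the morula, 9 and 6 to E10.5, and 0 and 12 to E16.5, with medians of 0.56, -0.16, 0.24 and -0.59. In the same order, 16.1% and 19.6%, 20% and 20.2%, 25% and 26.8%, and 17.3% and 20.1% of all probe sets rose and fell, so the counts to E10.5 lie near the background. Mcts2, a relative of the reinitiation factor Mcts1, rose by 4.47 ± 0.26 (SE) to the 2-cell stage, and Pabpc1l, the poly(A)-binding protein of oocytes, fell by 4.32 ± 0.26 (SE) to the 2-cell stage and then fell by 4.19 ± 0.26 (SE) to the morula. Ppp1r15a, which helps to remove phosphate from eIF2 alpha, rose by 3.13 ± 0.32 (SE) to the 2-cell stage and fell by 4.98 ± 0.32 (SE) to the morula. Pabpc1l and Ppp1r15a lay within the receptor range in morulae, so their falls to that stage are lower bounds. The helicase gene Ddx3x rose by 3.78 ± 0.27 (SE) to E10.5 and fell by 1.34 ± 0.24 (SE) to E16.5, and Pabpc4, another poly(A)-binding protein, fell by 3.48 ± 0.27 (SE) to E10.5. Rptor, of the mTOR complex, fell by 1.76 ± 0.32 (SE) to E16.5. Of 13 elongation and termination genes, 3 rose and 6 fell at the first step, 8 and 1 at the second, 6 and 2 to E10.5, and 2 and 5 at the last. Eef1g, a subunit of the exchange factor for eEF1A, rose by 4.68 ± 0.30 (SE) to the morula while the kinase gene Eef2k fell by 5.38 ± 0.28 (SE) to the morula, and Eef2, the translocase, rose by 5.18 ± 0.27 (SE) to E10.5. Etf1, the release factor eRF1, rose by 1.98 ± 0.28 (SE) to the 2-cell stage, and Gspt1, its GTPase partner, fell by 1.62 ± 0.22 (SE) to E16.5 while Eef2k rose by 1.25 ± 0.23 (SE) to E16.5. Dhps, the first enzyme that makes hypusine on eIF5A, rose by 2.07 ± 0.33 (SE, adjusted p = 1.29e-04) to the 2-cell stage and fell by 2.25 ± 0.30 (SE, adjusted p = 1.19e-05) to E10.5. Its partner enzyme Dohh, named after its values were seen, rose by 1.37 ± 0.29 (SE, adjusted p = 0.00135) and fell by 1.29 ± 0.26 (SE, adjusted p = 6.31e-04) at the same steps.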

How the data were processed

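Total RNA of pooled or single whole mouse embryos was amplified from 2 ng with a WT Pico kit and hybridised to Clariom S Mouse arrays, per the labels' protocols. The authors deposited log2 signals per probe set, made with the SST-RMA method and an mm10 annotation per the file headers, and the Transcriptome Analysis Console is named in the submitters' processing notes. The deposited p-values and false discovery rates are the authors' own. The 2 deposited tables hold the same signals, with 0 probe sets differing between them. No scanner files were used, so background and normalization could not be repeated, and the number of arrays limits the precision.

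Members, roles and gene lists were chosen with earlier results of these data known. Signals of all 22206 probe sets were fitted with limma 3.58.1 (lmFit and eBayes, R 4.3.3) with 1 mean per stage over the 12 arrays. Consecutive stages were contrasted, and p-values were adjusted by Benjamini-Hochberg over all probe sets at a threshold of 0.05. Paralog pairs were tested by exact permutation (Python 3.11.15, numpy 2.4.6) on within-array differences, in 11 of 13 listed pairs, since the rows of the other two name several genes. Values per array were given for members of the pairs and for the 5 largest rises and falls of each step, and also for the eIF2 subunits, the kinases, Eif3i, Eif4enif1 and Eif6. Genes that are no members were named by the 2 largest changes of each list and step. 1 erythroid marker is not reported here.

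Replicate numbers did not pair the arrays. Over 21 pairs of arrays with the same number and different stages, deviations from stage means correlated at -0.113 to 0.0513, with 0 pairs over 0.1. Alternatives included a trend of variance with intensity and a robust prior, quantile normalization, cyclic loess, centring on receptors or on the upper quartile, removal of dim probe sets, probe sets of 1 symbol, a replicate block, fits within 1 array date, stricter thresholds and leaving out each array. For pairs, the largest gap between stage means also replaced the F statistic.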

Additional observations from a re-analysis of the deposited data

How the results depend on the processing

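Of the members called in the main setting, 24 of 35 at the 2-cell stage, 25 of 33 at the morula, 35 of 43 at E10.5 and 18 of 33 at E16.5 were called under every alternative run other than the 2 stricter thresholds, and 0 changed sign. The 5 falls to the morula became 8 with an intensity trend and robust prior and 8 after cyclic loess. The single rise to E16.5 became 0 at a threshold of 0.01, 2 after quantile normalization and 5 after cyclic loess, and the 32 falls to E16.5 became 21 after cyclic loess. Under receptor centring, 53 of the 54 members differed over the 5 stages. The causes were not tested. With arrays left out in turn, rises ranged from 14 to 19, 23 to 28, 18 to 20 and 0 to 1 over the 4 steps, falls from 12 to 17, 4 to 6, 21 to 25 and 25 to 32, and members that differ over the stages from 54 to 54. Adjusted p-values then ranged from 0.0236 to 0.0940 for Eif5a with Eif5a2 and from 0.0351 to 0.420 for Eif4e with Eif4e2, and the other 9 pairs passed throughout. Under the replicate block, 19, 27, 18 and 1 members rose and 16, 5, 25 and 28 fell at the 4 steps; 5 calls were lost, those of Eif2s2, Eif3c, Eif3j2 and Eif4b at E16.5 and of Eif1b at the morula. Averaging the probe sets of each paralog gave no other value, since each has 1, and no fit within 1 array date exists for E10.5 against the morula. Low signals limit Eif2ak2, Eif3a, Eif4e1b, Eif4g3, Eif5a2 and the Ankhd1/Eif4ebp3 probe set, which reached the receptor range.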
